A study of Mus musculus with 2 samples.

Results

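The 9 genes described here encode the transcription factors at the core of sympathetic neuron and adrenal chromaffin cell identity: Phox2a, Hand1, Hand2, Gata2, Gata3, Insm1, Tfap2b, Tbx2 and Tbx3. They were taken by name from the 21938 protein-coding genes of GENCODE mouse release M21. For each gene, DNase I hypersensitive sites were read at the promoter, in the gene body and within 100 kb on either side of the gene.

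The chromatin came from MN1, an immortalized mouse line of strain B6NCrl. DNase-seq marks DNA that the nuclease DNase I can reach, and such sites are found at promoters, enhancers and other regulatory elements. The cells of both biological replicates, which form 1 group, had received methyltrienolone, a synthetic androgen, at 10 nM. No untreated library was analysed here, so nothing below compares conditions. The labels name no tissue. A line called MN1 serves elsewhere as a model of motor neurons, but the labels do not describe these cells as such. It is 1 line, and how its replicates were separated is not stated beyond the word biological.

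Sympathetic neurons and chromaffin cells arise from the neural crest and make noradrenaline or adrenaline. Their identity is held by a small set of transcription factors that bind one another's enhancers and also those of the enzymes and transporters of catecholamine synthesis. The homeodomain protein PHOX2A, the HAND basic helix-loop-helix proteins, the zinc finger proteins GATA2 and GATA3, INSM1, the AP-2 protein TFAP2B and the T-box repressors TBX2 and TBX3 take part in this circuit. Adrenergic neuroblastoma cells use much the same set.

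Replicate 1 held 189648 peaks and replicate 2 held 170745 peaks on 21 main chromosomes, and 68.8% and 76.9% of these overlapped the 127807 regions found in both. Such shared regions, made by merging peaks of one replicate with peaks of the other that they touched over 1 bp or more, are the units counted below. Each peak carries a score from 1 to 150, the authors' own value for that peak, with a median of 53 in replicate 1 and 51 in replicate 2. Read depth is unknown, and the lack of a called peak does not mean closed chromatin. Among sympathetic neuron markers, Dbh, Slc18a2 and Slc6a2 had no promoter peak, Ddc had one in 1 replicate, and Th had peaks at different places. An open promoter, one with a shared region at a start site, was found for 59.5% of all protein-coding genes. It was found at 7 of 9 motor neuron markers, 7 of 7 pan-neuronal markers, 1 of 4 glial markers, 3 of 4 fibroblast markers and 0 of 3 blood markers. Of the motor neuron markers, Mnx1 and Slc5a7 had no promoter peak. From these calls alone no cell type can be named.

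Promoters with a shared region less than 1 kb from any annotated transcription start site (TSS) of the gene were called open. By this rule 7 of the 9 genes were open (Hand2, Gata2, Phox2a, Tbx2, Insm1, Gata3 and Tbx3), and the share over all protein-coding genes was 59.5%. Neither Hand1 nor Tfap2b had a promoter peak in any list. The replicate 1 list alone and the replicate 2 list alone gave the same 7 genes, against 61.9% and 60.8% of all genes. Promoters rich in CpG are open in most cell types, and the 9 genes divided by this property. A TSS was counted as CpG-rich where the 500 bp on either side had an observed to expected CpG ratio of at least 0.6 and a GC content of at least 50%. All 7 genes with such a TSS were open, beside 87.3% of all genes of that kind, and 0 of the 2 genes without one were open, beside 30.3%. Both counts are close to those shares and are not a result about these genes. Of the 7, Tbx3 was open only at another TSS, which was not CpG-rich, as described below.

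**Figure D1:**
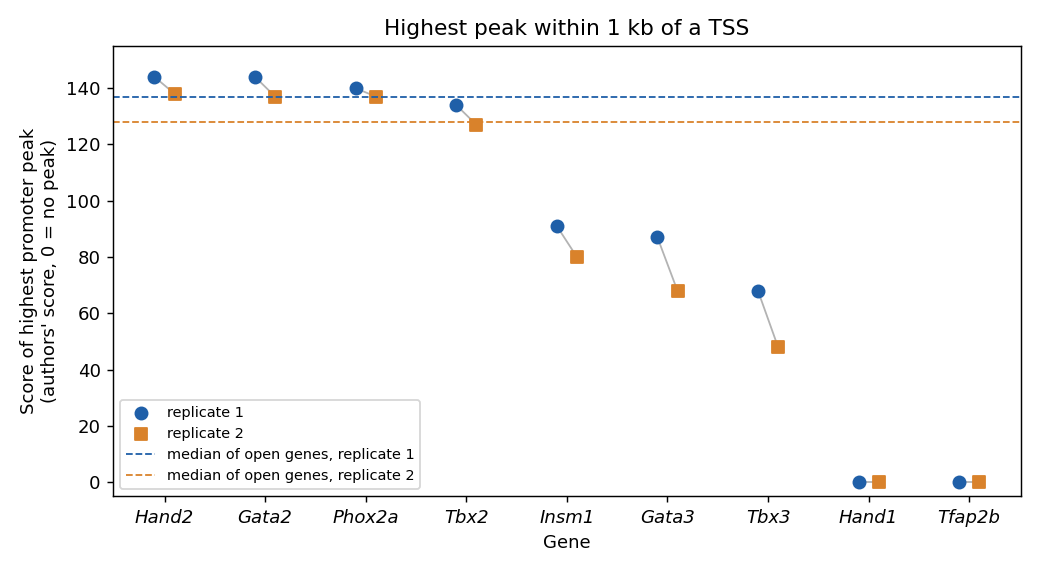
Score of the highest peak within 1 kb of a TSS for each of the 9 genes (vertical axis, the authors' score, 0 where there was no peak), with circles for replicate 1 and squares for replicate 2. Dashed lines mark the medians over all open protein-coding genes, 137 and 128. Hand2, Gata2 and Phox2a lie above their line in both replicates, Tbx2 just below, and Insm1, Gata3 and Tbx3 far below.

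The 7 open promoters fell into a high and a low set. To compare replicates, each score was also written as a percentile among the peaks of its own list. The highest promoter peak of Hand2 stood at percentile 98.1 ± 0.167 (SD, n = 2), that of Gata2 at 98.0 ± 0.0193 and that of Phox2a at 97.3 ± 0.999. The ranges of these 3 genes touched or overlapped, so their order is not resolved. Tbx2 followed at 94.9 ± 0.534, below the lowest value of Phox2a. Insm1 stood at 76.1 ± 1.54 and Gata3 at 70.8 ± 5.995, and their ranges overlapped. Tbx3 was lowest at 54.95 ± 11.7, with both its values below the lower one of Gata3. Over the 7 genes the median of the lower percentile was 94.5, the same as over all open protein-coding genes, so as a list they were not set apart by promoter height. Among open genes Hand2 stood at percentiles 73.4 and 77.0, Gata2 at 73.4 and 74.0, and Phox2a at 59.3 and 74.0. Tbx2 stood at 44.5 and 48.8 of the open genes, and Insm1, Gata3 and Tbx3 ranked low. Insm1 stood at percentiles 13.1 and 12.8 of the open genes, Gata3 at 12.0 and 9.42, and Tbx3 at 7.67 and 4.70.

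Hand2 encodes the HAND protein that sympathetic neurons need for their noradrenergic program. Its promoter (chr8:57320896-57321045, mm10, centred 13 bp before the TSS) scored 144 in replicate 1 and 138 in replicate 2. The gene shares this promoter with Hand2os1, a divergent noncoding RNA gene, whose highest promoter peak is the same one. Hand2 had 24 shared regions centred within 10 kb of its 5' end and 33 within 20 kb of that end. Neither count was made over all genes. In the gene or within 100 kb of it there were 43, percentile 82.5 of all protein-coding genes. Of these 43 regions 41 had Hand2 as the nearest protein-coding gene, and no other protein-coding gene had a TSS in the window. A hotspot, the authors' broader call of enriched DNase cleavage, covered the promoter over 2539 bp in replicate 1 and 2224 bp in replicate 2. Hotspots covered 75.9% and 81.5% of the gene itself, percentiles 99.2 and 99.4 of all protein-coding genes. The median cover over all protein-coding genes was 3.70% in replicate 1 and 3.23% in replicate 2. Cover was not adjusted for gene length, here or below, and Hand2 spans only 3651 bp.

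The highest Hand2 site outside the gene lay 7707 bp downstream of the gene's 5' end, at chr8:57328616-57328765 (mm10, plus strand, intergenic). It scored 141 in replicate 1 and 140 in replicate 2, almost level with the promoter. Among the 76127 distal shared regions, those more than 2.5 kb from any TSS, it stood at percentile 99.6, the highest of the 133 distal regions of the 9 genes. It is shown because it held letters that 3 kinds of factor of this circuit or its signalling can bind. The first capitals are an E-box of the kind bound by HAND proteins paired with E-proteins, CATCTG. The second capitals are a GATA site, read on the minus strand. The last are a cAMP response element, TGACGTCA.
Hand2 downstream site: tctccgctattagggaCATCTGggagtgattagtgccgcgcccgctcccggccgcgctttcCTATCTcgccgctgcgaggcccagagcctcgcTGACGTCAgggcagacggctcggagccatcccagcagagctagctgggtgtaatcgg
The cAMP response element was the only one in the 133 distal regions of the 9 genes, and 0.473% of all distal regions held one. Of 12 distal Hand2 regions 3 stood above percentile 90 of all distal regions (25%). The other two were chr8:57363056-57363225 (120 and 107) and chr8:57345636-57345805 (138 and 103), the latter in an exon of the noncoding gene 5033428I22Rik. Further sites that are not distal by the rule stood at noncoding genes downstream of Hand2. Among them were chr8:57331776-57331945 at 132 and 127, chr8:57333936-57334085 at 133 and 119, and chr8:57340896-57341065 at 138 and 115.

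Gata2 encodes a zinc finger protein of blood progenitors that also acts in sympathetic neurons and other neurons. The gene had 14 shared regions within 1 kb of its 4 TSSs. Only 0.36% of all protein-coding genes had at least 10, although a gene with more TSSs has a larger window. Both TSSs of protein-coding transcripts were open: the first scored 134 in replicate 1 and 127 in replicate 2, and the second, at 88198334 on chromosome 6, scored 144 and 137. The 2 TSSs of retained-intron transcripts scored 61 and 57, and 142 and 115. The accessible sites therefore ran through the whole gene, with 8 more regions in the body away from any TSS. Hotspots covered 74.7% of the gene in replicate 1 and 83.4% in replicate 2, percentiles 99.2 and 99.5 of all protein-coding genes. The widest at a promoter that both replicates shared spanned 2438 and 2454 bp at the first TSS. Around the second TSS the widths were 2123 and 3674 bp.

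Of 48 shared regions in or within 100 kb of Gata2, the most for any of the 9 genes, 31 were nearest to Gata2 and the other 17 to Rpn1 or Dnajb8. The highest outside the gene, at −4111 bp from its 5' end (chr6:88189696-88189865, mm10, plus strand), lay in an intron of the noncoding gene Gm38708. It scored 146 in replicate 1 and 141 in replicate 2, above both Gata2 promoters. It is printed because it held 2 GATA sites, in capitals, the letters to which GATA2 and GATA3 themselves bind.
Gata2 upstream site: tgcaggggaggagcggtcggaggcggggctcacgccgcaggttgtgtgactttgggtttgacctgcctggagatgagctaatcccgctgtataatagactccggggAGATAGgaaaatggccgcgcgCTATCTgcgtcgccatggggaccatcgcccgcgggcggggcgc
The first capitals read AGATAG on the plus strand, and the second are its reverse complement. Within 10 kb of the 5' end of Gata2 there were 25 shared regions, counted by their centres and not compared with other genes. Farther upstream, chr6:88124036-88124205 (126 and 124) at −69771 bp and chr6:88136216-88136405 (124 and 104) at −57581 bp stood above percentile 90 of distal regions, but both were nearer to Rpn1. Nearness to a TSS does not show which gene a site acts on.

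Phox2a encodes a homeodomain protein that turns on noradrenergic enzyme genes. The promoter scored 140 in replicate 1 and 137 in replicate 2, at neighbouring places. The region over the TSS (chr7:101818196-101818365) scored 140 and 131, and one centred at −333 bp (chr7:101817896-101818065) scored 139 and 137. Both were thus high in both replicates. The part of the first region that lies upstream of the TSS (chr7:101818196-101818312, mm10, plus strand, the strand of the gene) is printed to show the GC-rich sequence of an open core promoter. It has no capitals because none of the 9 motifs searched was found in it.
Phox2a promoter: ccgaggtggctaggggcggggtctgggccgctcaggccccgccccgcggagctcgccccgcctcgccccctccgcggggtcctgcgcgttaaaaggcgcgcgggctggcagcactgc
The second annotated TSS, of a retained-intron transcript, scored 91 in replicate 1 and 81 in replicate 2. A site near the 3' end of the gene, in a UTR (chr7:101822136-101822285), was higher at 135 and 116. The hotspot over it measured 3000 and 2666 bp, the widest pair linked to a promoter of the 9 genes by the smaller of both widths. It counted as a promoter hotspot because its edge lay within 1 kb of the second TSS, and it ran past the end of Phox2a into Inppl1. The hotspot over the first TSS spanned 1760 and 1730 bp.

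Phox2a lies in a gene-dense stretch, and that bears on its count. Of 42 shared regions within 100 kb, 33 were nearer to one of 8 other protein-coding genes in the window. The highest outside the gene (chr7:101905756-101905925, 149 and 142) lay 64 bp from a TSS of Lamtor1. The highest distal one, at −45333 bp in an intron of Clpb (chr7:101772856-101773105), scored 141 and 126 and stood at percentile 98.9 of all distal regions.

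Tbx2 encodes a T-box repressor that promotes proliferation in adrenergic neuroblastoma. Its promoter (chr11:85832636-85832785) scored 134 in replicate 1 and 127 in replicate 2, within a hotspot of 2019 and 2074 bp. Hotspots of at least 2000 bp in both replicates stood at promoters of 4 of the 9 genes (Hand2, Gata2, Phox2a and Tbx2), beside 7.14% of all protein-coding genes. The Phox2a one is the 3' end hotspot described above. A further site at −1331 bp (chr11:85831136-85831305) scored 128 and 104. Beyond the 3' end stood a group of 3 high intergenic sites. The first (chr11:85843416-85843585, mm10, plus strand) was centred 10949 bp from the 5' end and scored 138 and 122. The second, at 11739 bp, scored 129 and 128, and the last, at 12259 bp, scored 123 and 104. They stood at percentiles 98.1, 97.6 and 93.8 of distal regions, and no other distal Tbx2 region was above percentile 90. The first is shown as the highest site outside the gene. Its capitals mark CAGCTG, an E-box that many basic helix-loop-helix proteins bind.
Tbx2 downstream site: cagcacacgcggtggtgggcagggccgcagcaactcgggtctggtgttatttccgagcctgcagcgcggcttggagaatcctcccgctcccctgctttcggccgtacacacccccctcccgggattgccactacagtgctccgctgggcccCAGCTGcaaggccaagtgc
By TSS distance the nearest protein-coding gene to these 3 sites was Gm11444, not Tbx2. Of all 32 shared regions within 100 kb of Tbx2, 8 were nearest to it. The body of the gene held 1 region away from the promoter, and hotspots covered 14.8% and 18.2% of it.

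Insm1 encodes a zinc finger protein of neuroendocrine cells, including chromaffin cells and their precursors. Its 2 promoter regions both lay inside the transcribed sequence. The nearer, centred 219 bp after the TSS, scored 66 in both replicates, and the other, at 709 bp in the coding exon (chr2:146222556-146222705), scored 91 and 80. Another region, at 1349 bp (chr2:146223176-146223365), scored 95 and 88, so sites of moderate score extended along this single-exon gene. The hotspot calls differed between replicates. The widest at the promoter measured 1217 bp in replicate 1 and 335 bp in replicate 2, and hotspots covered 61.4% and 34.6% of the gene. Both shares still ranked at percentiles 98.6 and 96.6 of all genes, but Insm1 spans only 3100 bp and cover was not adjusted for length. Within 100 kb there were 24 shared regions, 5 nearest to Insm1. The highest outside the gene stood at −21491 bp in an intron of Cfap61 (chr2:146200316-146200545, 111 and 89). Closer by, sites at −3301 bp (97 and 85) and −4551 bp (93 and 95) were about as high as the promoter. No distal Insm1 region was above percentile 90.

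Gata3, the GATA factor that chromaffin and sympathetic cells depend on to keep their identity, was open at 1 of its 6 TSSs. The TSS of the protein-coding transcript that starts at 9878600 (minus strand) had 4 shared regions within 1 kb. The one over the TSS (chr2:9878536-9878685) scored 77 in replicate 1 and 68 in replicate 2, and the highest peak in replicate 1 was at another, with 87 there and 53 in replicate 2. The other protein-coding TSS, at 9890034, had no shared region nearer than 7024 bp. The strongest site of the locus lay just outside the promoter rule, 1130 bp upstream of the open TSS in an intron of the longer transcript (chr2:9879656-9879805, mm10, plus strand). It scored 147 and 134, well above the promoter in both replicates and at percentiles 99.1 and 97.2. With a promoter window of 2.5 kb this site would give Gata3 a promoter score of 147 and 134. It is shown for that reason. The capitals, TGAGTCA, mark a site for the factor AP-1.
Gata3 intron site: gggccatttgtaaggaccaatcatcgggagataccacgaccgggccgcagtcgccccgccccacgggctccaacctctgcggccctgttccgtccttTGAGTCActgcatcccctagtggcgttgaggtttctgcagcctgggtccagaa
The remaining regions formed a run of 5 on the far side of this site, from chr2:9880296-9880465 to chr2:9882936-9883085. Their scores were 54 to 107 in replicate 1 and 44 to 84 in replicate 2, and all 5 were nearest to 4930412O13Rik, a gene that starts inside Gata3. Away from this cluster the locus was sparse. Of 17 shared regions within 100 kb, 7 lay outside the gene, and the highest of them (chr2:9918856-9919005, 69 and 40) was at a TSS of Taf3. By the lower of both replicates none of its 6 distal regions stood above percentile 16.0 of all distal regions, although one (chr2:9986076-9986345) scored 71 in replicate 1 and 31 in replicate 2.

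Tbx3, a T-box repressor close to TBX2, differed in that its open call did not rest on a start of a protein-coding transcript. The start sites at 119670669, 119670862 and 119671018 on chromosome 5, each used by a protein-coding transcript, had no peak within 1 kb in either replicate. All 3 were CpG-rich, with observed to expected ratios of 0.823, 0.908 and 0.941. Over all protein-coding genes, 89.2% of CpG-rich TSSs were open. For the 9 genes the count was 7 of 11, and the 4 without one all belonged to Tbx3. The 250 bp upstream of the first start (chr5:119670419-119670668, mm10, plus strand, the strand of the gene) are printed with each CpG in capitals, 24 in all, to show what kind of sequence had no called peak.
Tbx3 upstream of the first start: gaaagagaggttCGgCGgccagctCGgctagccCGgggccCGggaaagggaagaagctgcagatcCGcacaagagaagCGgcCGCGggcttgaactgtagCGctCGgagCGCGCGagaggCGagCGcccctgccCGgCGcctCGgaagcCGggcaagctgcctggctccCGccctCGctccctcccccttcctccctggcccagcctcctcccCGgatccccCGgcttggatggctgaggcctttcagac
The nearest shared region to this start lay 4471 bp away, in an intron. That region (chr5:119675056-119675225) scored 68 in replicate 1 and 48 in replicate 2. It and a second one (56 and 34) gave the promoter call only because a retained-intron transcript starts at 119675445. Counting only TSSs of protein-coding transcripts, 6 of the 9 genes were open, without Tbx3, beside 58.1% of all genes.

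**Figure D2:**
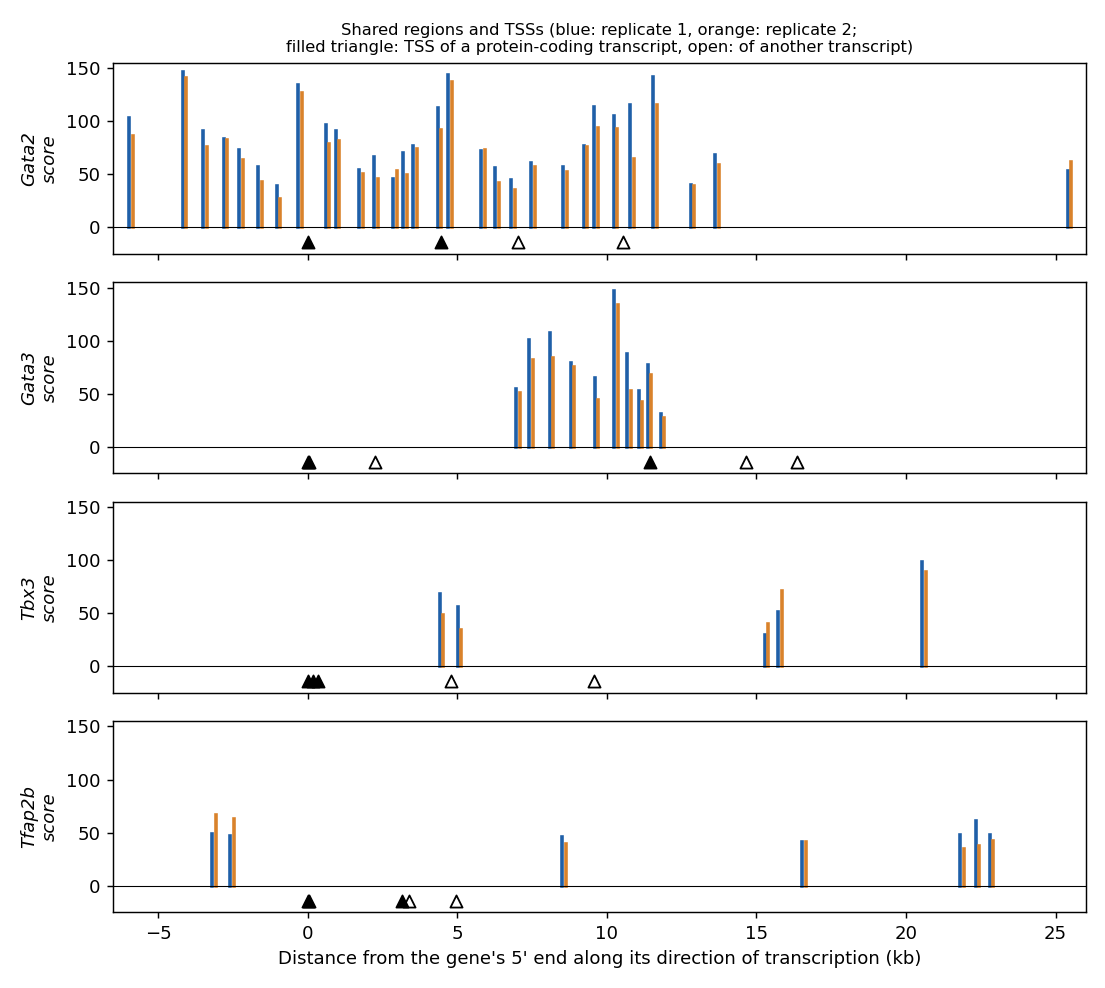
Shared regions near the start sites of Gata2, Gata3, Tbx3 and Tfap2b, by distance from the gene's 5' end along its transcription (kb). Bars give the score in replicate 1 (blue) and replicate 2 (orange), filled triangles are starts of protein-coding transcripts and open triangles other starts. Gata2 has bars at every start, Gata3 at 1 protein-coding start with its highest bar just upstream of it, Tbx3 only near a start of a noncoding transcript, and Tfap2b at none.

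The strongest Tbx3 sites were far from the gene. Of its 20 shared regions 18 were nearest to Tbx3, and no other protein-coding gene had a TSS in the window. The highest, at −57869 bp (chr5:119612716-119612885, mm10, plus strand), lay in an intron of the antisense noncoding gene Tbx3os1 and scored 135 in replicate 1 and 127 in replicate 2. This was above every peak at the Tbx3 starts and at percentile 98.8 of all distal regions. None of the 9 motifs was found in its central 150 bp. It is printed as the site that stands out at this locus.
Tbx3 upstream site: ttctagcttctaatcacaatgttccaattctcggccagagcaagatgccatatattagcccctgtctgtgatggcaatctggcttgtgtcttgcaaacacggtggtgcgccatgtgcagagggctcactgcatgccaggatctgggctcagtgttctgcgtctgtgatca
The next highest, at −18959 bp (chr5:119651636-119651785), scored 128 and 101 and held a CATCTG E-box. A hotspot of 1732 and 1637 bp covered the first of these 2 sites, against 339 and 337 bp at the Tbx3 promoter call.

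Hand1 encodes the second HAND protein, best known from the placenta and heart and also found in the sympathetic chain. It had no peak at either TSS, none in the gene body and no hotspot over the gene. The nearest shared region was 8257 bp from a start. Neither TSS was CpG-rich (observed to expected ratios of 0.340 and 0.387). Yet 26 shared regions lay within 100 kb, above the median of all genes. The highest (chr11:57801476-57801625, 147 and 146) stood 87 bp from a TSS of Sap30l, and 13 of the 26 were nearest to Hand1, all intergenic. Those 13 scored 36 to 99 in replicate 1 and 32 to 107 in replicate 2. The highest in replicate 1 was upstream at −18282 bp (99 and 85), and the highest in replicate 2 was downstream at 12628 bp (93 and 107). The region at −31942 bp (chr11:57864676-57864845, mm10, plus strand), which scored 89 and 100, is printed because it held 2 GATA sites and a HAND type E-box within a short stretch. Capitals mark them in that order (TTATCT on both GATA sites, which is AGATAA on the minus strand, and CATCTG).
Hand1 upstream site: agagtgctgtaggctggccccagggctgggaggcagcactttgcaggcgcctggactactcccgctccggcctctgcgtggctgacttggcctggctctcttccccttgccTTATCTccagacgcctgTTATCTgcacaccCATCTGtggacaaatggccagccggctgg
It was chosen for display after its motifs and values were seen.

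Tfap2b encodes an AP-2 protein of the neural crest and sympathetic ganglia, and its locus had the fewest shared regions of the 9. No peak stood within 1 kb of its 5 TSSs. The nearest was 2534 bp upstream of the first (chr1:19206296-19206465) at 47 in replicate 1 and 63 in replicate 2. Only 9 shared regions lay in the gene or within 100 kb, percentile 29.0 of all genes, though Tfap2b was the nearest gene to all 9. Of these, 5 lay in its introns with scores of 41 to 61 and 35 to 42. The highest by the lower percentile was at −29704 bp (chr1:19179136-19179285, mm10, plus strand) at 61 and 76, and the capitals mark its GATA site, TTATCA, which is TGATAA on the minus strand.
Tfap2b upstream site: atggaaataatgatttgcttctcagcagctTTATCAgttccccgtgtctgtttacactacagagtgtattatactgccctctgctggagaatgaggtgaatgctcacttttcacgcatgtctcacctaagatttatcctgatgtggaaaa
GATA sites were found in 5 of the 8 distal Tfap2b regions (62.5%), beside 22.6% of all distal regions. With 8 regions this is a description only, and 4 of the 5 regions were among the weak intronic ones.

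**Figure D3:**
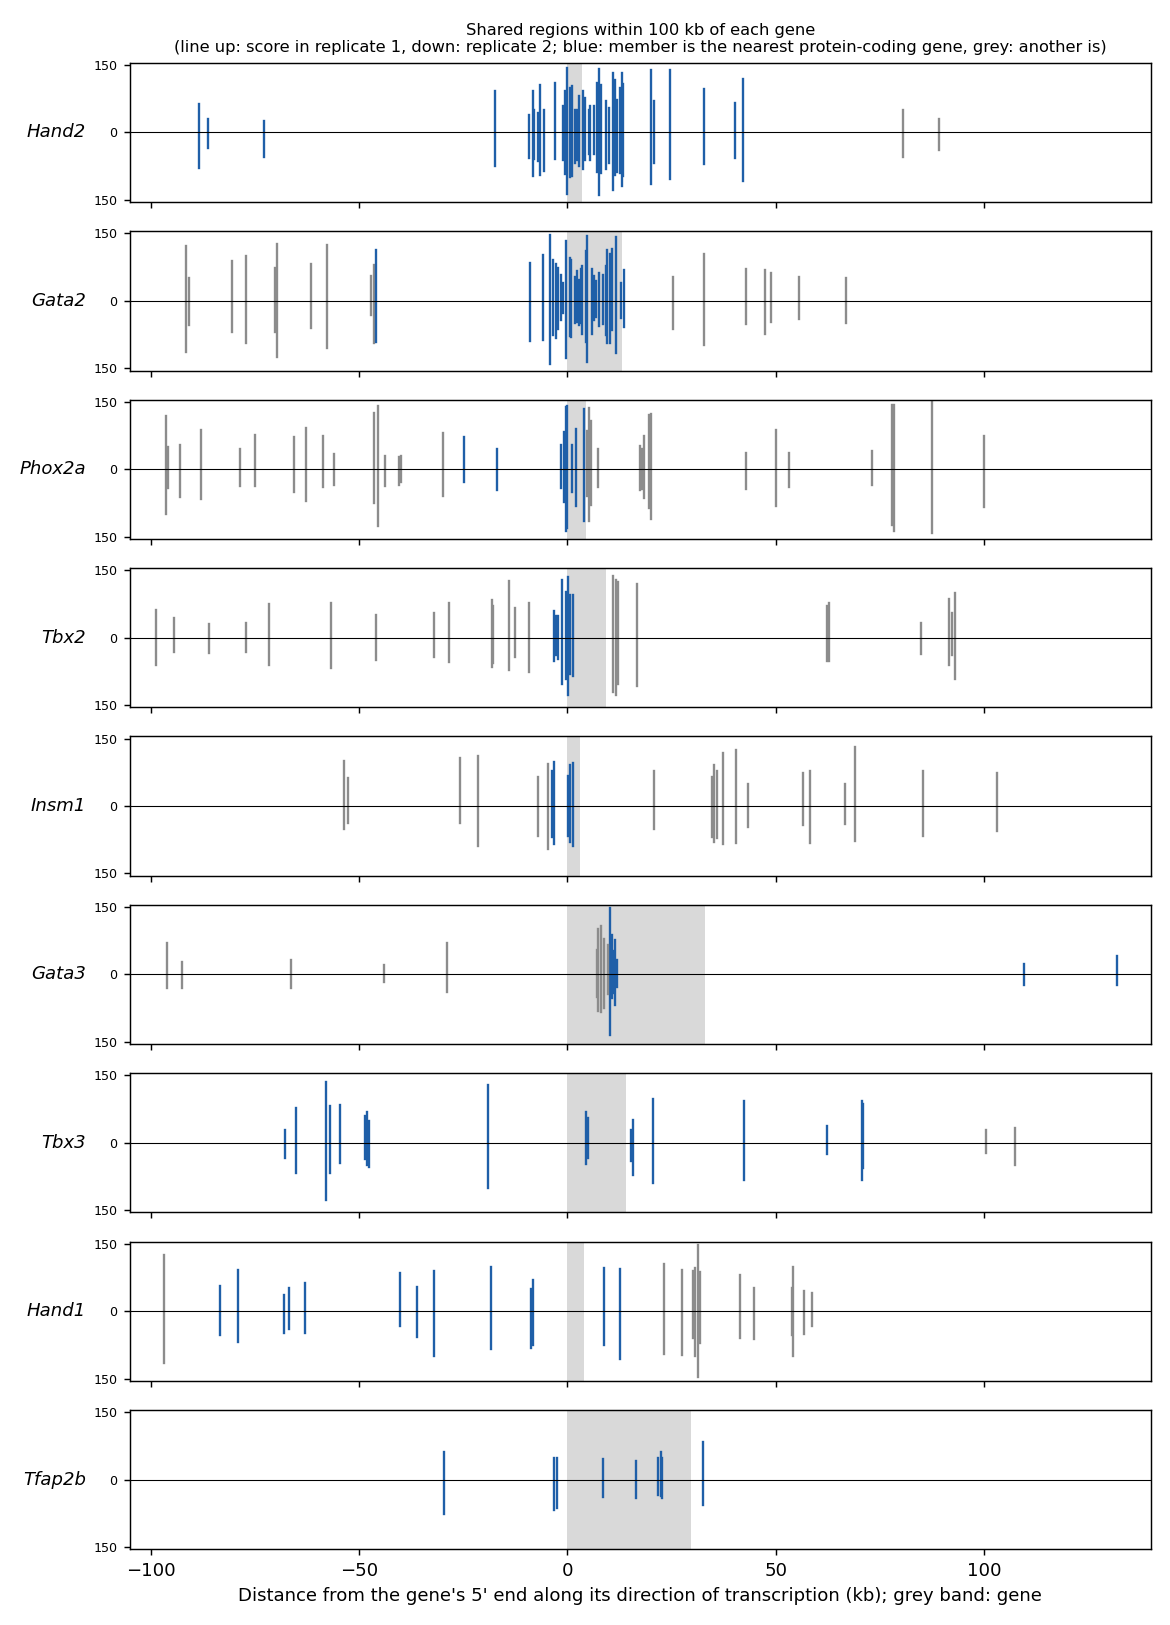
All shared regions in or within 100 kb of each gene, by distance from the gene's 5' end along its transcription (kb), with the score of replicate 1 drawn upward and that of replicate 2 downward. The grey band is the gene, blue lines have it as the nearest protein-coding gene and grey lines another gene. Sites crowd the genes Hand2 and Gata2, while the tall lines of Tbx3 stand away from the gene and Tfap2b has few lines, all low.

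Summed over the 9 genes, 261 shared regions lay in the genes or within 100 kb of them, with a median of 26 per gene (range 9 to 48) against 21 over all protein-coding genes (quartiles 7 and 37). At least 20 regions were found for 7 of the 9 genes, beside 52.3% of all genes, and at least 40 for 3 (Gata2, Hand2 and Phox2a), beside 21.4%. These counts depend on the neighbours. The regions nearest to the gene itself numbered 41 for Hand2, 31 for Gata2, 18 for Tbx3, 13 for Hand1, 9 for Phox2a and for Tfap2b, 8 for Tbx2, 7 for Gata3 and 5 for Insm1. Counted that way Phox2a no longer stood with Hand2 and Gata2. Of the 133 distal regions, 13 (9.77%) stood above percentile 90 of all distal regions, so as a list they were no higher than distal sites elsewhere. Hand2 and Tbx2 had 3 each, Gata2, Phox2a and Tbx3 2 each, Hand1 had 1, and Gata3, Insm1 and Tfap2b had none.

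**Figure D4:**
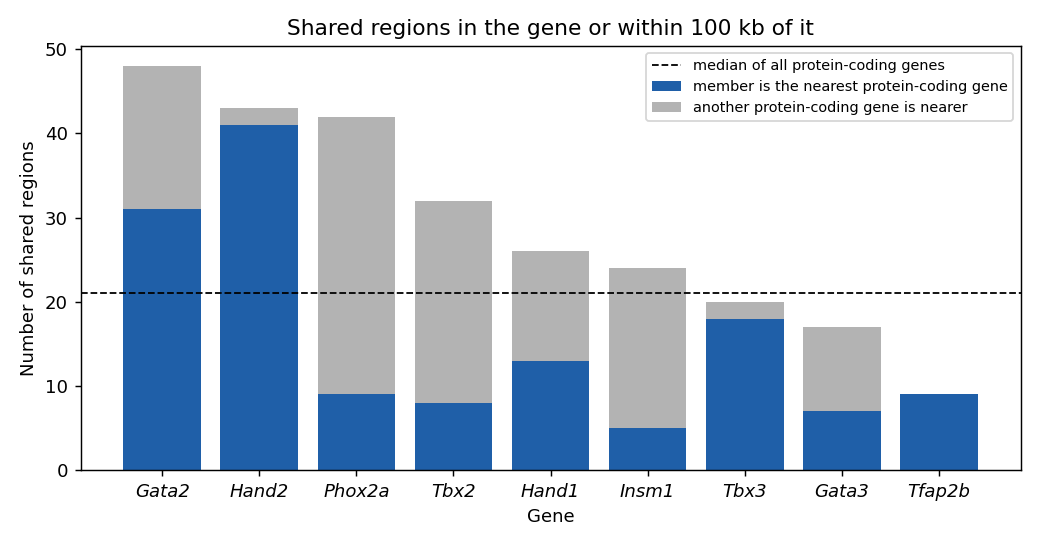
Number of shared regions in each gene or within 100 kb of it (vertical axis), divided into regions nearest to the gene (blue) and nearest to another protein-coding gene (grey). The dashed line is the median of all protein-coding genes, 21. Gata2, Hand2 and Phox2a have the tallest bars, but in the Phox2a bar only 9 of 42 regions are blue.

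Replicate 1 had 69 peaks in the Gata2 window and replicate 2 had 64, and in the Hand2 window they had 66 and 65. They were farther apart in 3 windows, with 41 and 27 peaks for Insm1, 40 and 30 for Hand1, and 27 and 21 for Gata3. Of the replicate 2 peaks there, 88.9%, 86.7% and 90.5% overlapped a shared region, and of the replicate 1 peaks 58.5%, 65.0% and 63.0%. As a percentile of its own list, replicate 1 stood higher at 15 of 17 Gata3 regions, 32 of 42 Phox2a regions and 18 of 24 Insm1 regions. The same held at 23 of 32 Tbx2 regions, 14 of 20 Tbx3 regions and 31 of 48 Gata2 regions. For Tfap2b the count was 5 of 9, for Hand1 12 of 26 and for Hand2 17 of 43. The share over all shared regions was not computed, so these counts are not a result about these loci.

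The letters bound by the factors themselves were sought on both strands in the central 150 bp of each distal region. Exact matches to the letters given beside each value were required, and 3 motifs of widely used factors (AP-1, CRE and NFI) were sought in the same way. No motif contains another, though sites of different kinds can overlap in a region. A GATA site was the word GATA preceded by A or T and followed by A or G. Such sites were the most frequent, in 32 of 133 regions (24.1%) beside 22.6% of all 76127 distal regions. The homeodomain core TAATTA was found in 10 regions (7.52% beside 5.33%), and the AP-2 site GCCNNNGGC in 9 (6.77% beside 6.27%). The E-box of HAND proteins with E-proteins, CATCTG, was found in 23 regions (17.3% beside 20.8%). A symmetrical E-box bound by many basic helix-loop-helix proteins, CAGCTG, was found in 14 regions (10.5% beside 15.3%). AP-1 sites, TGAGTCA, were found in 12 regions (9.02% beside 14.5%), and the NFI motif, with the letters TTGGCA, in 14 regions (10.5% beside 14.3%). The CRE, TGACGTCA, was found in 1 region (0.752% beside 0.473%). The T-box site AGGTGTGA was in 0 of the 133 regions, for which the 95% Wilson interval reaches 2.81%, and in 0.460% of all distal regions. For each of the 9 motifs the share over all distal regions lay within the Wilson interval of the 133 regions, which covers counting error only. Within 50 kb of the genes this did not hold for 2 motifs. AP-1 sites were found in 3 of 73 distal regions there (4.11%, interval 1.41% to 11.4%), below the 14.5% of all distal regions. The E-box CAGCTG was found in 5 of 73 (6.85%, interval 2.96% to 15.1%), just below the 15.3% of all. A match is a run of letters and not a bound site.

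**Figure D5:**
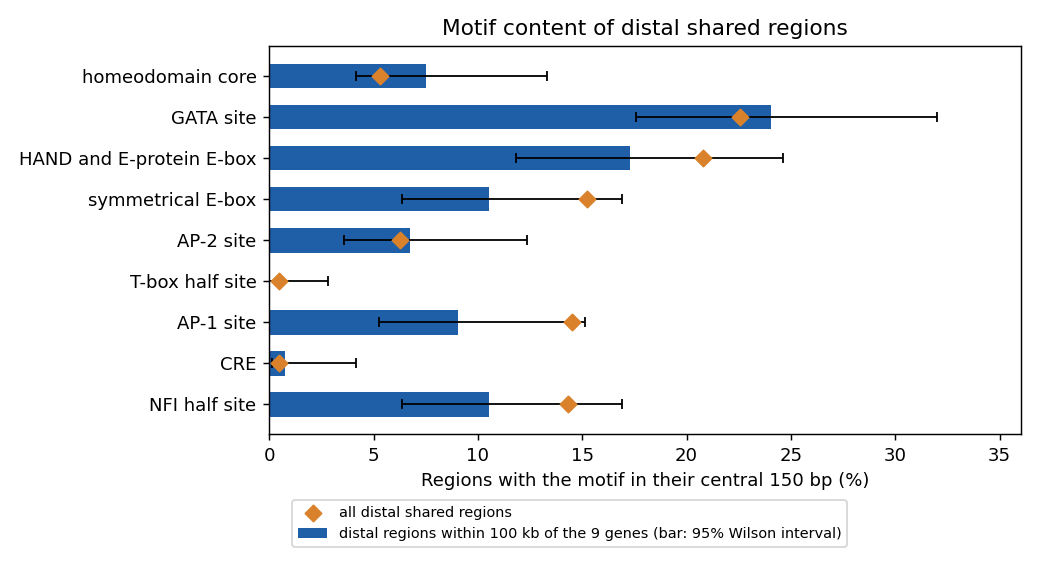
Share of distal shared regions whose central 150 bp hold each motif (horizontal axis, percent). Blue bars with 95% Wilson intervals are the 133 regions within 100 kb of the 9 genes, and orange diamonds all 76127 distal regions. Each diamond lies within the interval of its bar, from GATA sites at 24.1% beside 22.6% down to the T-box site at 0 beside 0.460%.

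Among 24 paralogues of the 9 genes, 7 had open promoters (29.2%, beside 59.5% of all protein-coding genes). The highest were Tbx20 (142 in replicate 1 and 128 in replicate 2), Gata4 (125 and 117), Mga (124 and 113) and Tbx6 (94 and 91). Eomes, Gata1 and Gata6 were the first in alphabetical order of 15 without a promoter peak, and Gata5 and Tbx5 had a peak in 1 replicate only. All AP-2 paralogues (Tfap2a, Tfap2c, Tfap2d and Tfap2e) lacked a promoter peak, as Tfap2b did. Gata2 was the highest of the 6 GATA genes in both replicates. Within the T-box family Tbx2 lay below Tbx20 in replicate 1 (134 and 142) and in replicate 2 (127 and 128).

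Of 25 partners of these factors, 22 were open (88%), beside 59.5% of all protein-coding genes and 87.3% of those with a CpG-rich TSS. The group includes cofactors of GATA proteins, E-proteins that pair with HAND proteins, the LSD1 and CoREST corepressor that INSM1 recruits, and other factors of the circuit. The highest were Zfpm1, which encodes the GATA cofactor FOG1 (149 and 146), Cited2, which encodes a coactivator of AP-2 proteins (147 and 142), Tcf3, an E-protein gene (148 and 140), and Klf7 (148 and 136). The HAND partners Tcf4 (143 and 141) and Tcf12 (117 and 117) were open too. So were Kdm1a (141 and 139) and Rcor1 (144 and 132), which encode LSD1 and CoREST. Isl1, a LIM homeodomain factor of sympathetic and motor neurons, scored 138 and 137. Klf13, Sox11 and Zfpm2 had no promoter peak.

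Of 14 target genes found in the annotation, 7 were open (50%), near the 59.5% of all protein-coding genes. Hand2os1 shared the Hand2 peak. Slc18a1, the vesicular monoamine transporter of chromaffin cells, scored 147 and 135, the nicotinic receptor gene Chrna3 scored 137 and 120, and the granin gene Chgb scored 128 and 123. Ret (123 and 115), Gch1 (116 and 120) and Chga (97 and 95) completed the open ones. Cartpt, Dbh, Npy, Slc18a2 and Slc6a2 had no promoter peak. Ddc had one in replicate 2 only (52), and Th had peaks at different places (29 in replicate 1 and 26 in replicate 2). The genes for the steps from tyrosine to noradrenaline thus had weak or no promoter peaks in these libraries. In the same libraries Hand2, Gata2 and Phox2a lay above the median of open genes. No RNA was measured, so these values say nothing of the level of any transcript.

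Among the 49 paralogues and partners, likeness was measured as the distance in 3 percentiles over all protein-coding genes (the promoter score in replicate 1, that in replicate 2 and the number of shared regions within 100 kb). Hdac1 (142 and 140, 50 regions) was closest to Gata2 at a distance of 7.30, to Hand2 at 8.72 and to Phox2a at 9.95. Ldb1 (139 and 128, 31 regions) was closest to Tbx2 at 7.33. Tal1 (67 and 65, 20 regions) was closest to Tbx3 at 2.499 and to Insm1 at 8.42. With promoter scores ranked among the peaks of each list instead, an alternative chosen after the data were seen, the closest to Insm1 was Tbx1 (92 and 92, 33 regions) at 15.8, while those of the other 5 genes named here were the same.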

How the data were processed

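DNase-seq peaks and hotspots of 2 replicates were used as the authors deposited them, 1 list per library and not pooled; mm10 is the assembly per the labels. For the aligner and caller, names were not given in the sources used here. The authors deposited a score for each 150 bp peak, whose meaning is not stated, and for each hotspot the −log10 of a q-value, at most 100. Scores were ranked only within a list. Only the 21 main chromosomes were used, and 15 and 26 repeated entries were dropped. Gene models were those of GENCODE M21, and sequences and annotations were read from GRCm38, the assembly of mm10. CpG content and motifs were read with pysam 0.24.0 under Python 3.11.15 and numpy 2.4.6. Coordinates are 1-based. Hotspot width is the smaller of both widths of the widest overlapping pair at a promoter.

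With 1 group, no test was made: values are given per replicate, with the background over all protein-coding genes. The number of reads is not in the lists, so precision cannot be given per peak. Named were all 9 genes, the highest shared region at each promoter, body and flank by the lower of both percentiles, and in each list the 4 highest open genes and the first 3 without a peak. Other regions and genes given with values, among them the printed Hand1 and Tbx3 sequences, were chosen after their values were seen. The genes and lists were chosen with earlier results of these data known. Gata3os was not found under that name in the annotation and was not analysed here. Some genes of the lists are counted but not reported here by name. Alternatives were each replicate alone, the stronger 50% of peaks, stricter overlaps, other windows, protein-coding starts only and hotspots. The overlap of peaks, the promoter calls and the counts of regions within 100 kb were tested on simulated peaks of chromosome 1. The other steps were not tested in this way.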

Additional observations from a re-analysis of the deposited data

How the results depend on the processing

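The number of open promoters among the 9 genes was 7 with each replicate alone, with an overlap of at least 75 bp, with a promoter window of 500 bp and with hotspots. It was 6, without Tbx3, in the stronger 50% of peaks and with TSSs of protein-coding transcripts, and 8, with Tfap2b (47 and 63), at 2.5 kb. The median number of regions within 100 kb, 26 as reported, ranged from 30 to 41 with 1 replicate left out, each list then counting its own peaks. It was 17 within 50 kb and 16 for regions over 2.5 kb from any TSS, which are subsets by construction. The median hotspot width at the promoters of the 7 open genes was 2019 bp, beside 1204 bp over open protein-coding genes. This median ranged from 2019 to 2074 bp with 1 replicate left out. It was 2121.5 bp with hotspots that contain one of the stronger 50% of peaks and 1730 bp with a window of 500 bp. The median lower percentile of the promoter score, 94.5, became 95.5 at 2.5 kb, where Gata3 scored 147 and 134. The share of distal regions with any of the 9 motifs fell from 60.2% (80 of 133) to 50.7% (37 of 73) within 50 kb, beside 66.7% of all distal regions, and the cause was not tested. Of 22 alternatives to these summaries 14 stayed within their limits, as did 37 of 45 for single genes and motifs. AP-1 sites went from 9.02% to 4.11% within 50 kb. Insm1 scored 66 in both replicates with a window of 500 bp. No paired analysis was possible because both libraries belong to 1 group.

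Called peaks depend on read depth, which is unknown here. With 2 libraries of 1 treated line, neither the effect of methyltrienolone nor the spread between lines can be given.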
